A study of Mus musculus with 9 samples.

Results

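Serpins are a family of proteins that share one fold, and the 45 genes described here are those whose symbol begins with Serpin among the 14507 genes that the platform annotation of the array names through probe sets with 1 symbol. Together they had 239 probe sets, each of which reads about one exon: 15 genes of clade a with 61 probe sets, 22 genes of clade b with 130, and 8 genes of other clades (c, d, e, f, g and i) with 48. The value of a gene was the median log2 signal over its probe sets, and 6 members rested on 1 probe set. A table of RefSeq genes lists 63 protein-coding serpins of the mouse, and the other 18, among them Serpinb3a and Serpinb3b, were not analysed here.

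Most serpins trap a protease: the enzyme cuts an exposed loop of the serpin, which then snaps into a new shape and holds the enzyme bound and inactive. Clade a serpins are mostly secreted and many circulate in plasma, whereas clade b serpins lack a classical signal peptide and mostly act inside cells. In the epidermis proteases cut the junctions between cornified cells during shedding, and inherited loss of certain serpins causes disorders of the cornified layer in humans.

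The samples were sebaceous glands (SG), hair follicles (HF) and interfollicular epidermis (IFE), cut out by hand. They came from tail epidermis of adult female mice, wild type and of a C57BL6/CBA background. Every sample pooled pieces of a single compartment, with 3 arrays for each compartment, labelled as biological replicates, and 9 in all. No genotype or treatment differed between the groups, and IFE served as the compartment against which SG and HF were set. P-values measure the spread between these pooled dissections, and in such bulk samples fewer cells of a type and less RNA per cell cannot be told apart.

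The array names in the sample descriptions gave another compartment than the titles for 9 of 9 arrays, and groups were taken from the titles. Marker lists followed the titles, apart from the resting hair follicle list, which did not separate SG from HF. Of 10 sebocyte markers, 10 were higher in SG than in IFE, 10 were higher in SG than in HF, and 7 were higher in HF than in IFE. Of 7 measured markers of hair shaft and inner root sheath, 7 were higher in HF than in IFE and 7 were lower in SG than in HF. Of these, 4 were higher in SG than in IFE. Of 7 measured suprabasal markers of IFE, 5 were lower in SG and 5 were lower in HF than in IFE. Of 8 resting hair follicle markers, 0 were called in SG against HF. The mean of that list was 8.74 to 8.88 on the SG arrays, 8.85 to 8.90 on the HF arrays and 7.04 to 7.17 on the IFE arrays. The mean log2 signal of the hair shaft list was 7.64 and 7.73 on SG replicates 1 and 2, 10.27 on SG replicate 3, 11.88 to 12.61 on the HF arrays and 6.53 to 6.64 on the IFE arrays, so SG replicate 3 stood apart. HF replicate 2 had the highest mean of the HF arrays on the sebocyte list, at 8.90 against 8.34 and 8.41, and on the suprabasal list, at 10.74 against 10.33 and 10.29. No deposited signal was 0 and detection calls were not used here, so whether a dim gene was expressed at all is unknown.

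A gene was called at a Benjamini-Hochberg adjusted p under 0.05 in limma over all genes together with a log2 difference of at least 1. In SG against IFE, 11 of 45 serpins were called, 2 higher and 9 lower, where 9.49% of all genes were called. In HF against IFE, 12 were called, 2 higher and 10 lower, where 6.31% of all genes were called. In SG against HF, 8 were called, 4 higher and 4 lower, where 5.11% of all genes were called, 1.81% higher and 3.30% lower. By a moderated F test of any difference among the compartments, 18 of 45 serpins (40%) passed, where 24.5% of all genes did. The comparisons against IFE share the IFE arrays, so their calls are not independent.

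Called or not, 13 of 45 serpins had every SG array below every IFE array and 6 had every SG array above, where 21.7% and 13.2% of all genes did. Every HF array lay below every IFE array for 14 and above for 5, where 19.3% and 13.5% of all genes did. Every SG array lay below every HF array for 7 and above for 9, where 17.2% and 12.1% of all genes did.

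By clade, these counts fell mostly on clade b among the lower calls. Clade b held 7 genes lower and 1 higher in SG than in IFE, where 6.96% of all genes were called lower and 2.54% higher. In HF against IFE it held 8 lower and 0 higher, where 3.36% of all genes were called lower and 2.96% higher, and at an unadjusted p under 0.05 limma also gave 0 higher and 10 lower, where 9.45% and 17.0% of all genes were. Clade a held 1 gene higher and 2 lower in SG, and 2 higher and 2 lower in HF, each against IFE. Of the 8 genes of other clades, 0 were called against IFE in either compartment by limma, with 1 at an unadjusted p under 0.05 in SG and 0 in HF, where 35.1% and 26.4% of all genes were. The median log2 difference from IFE was -0.28 in SG and -0.45 in HF for clade b, 0.18 and -0.07 for clade a, and 0.15 and 0.24 for the other clades. Over all genes it was -0.06 in SG and -0.07 in HF. No test of a difference between clades was run.

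**Figure D1:**
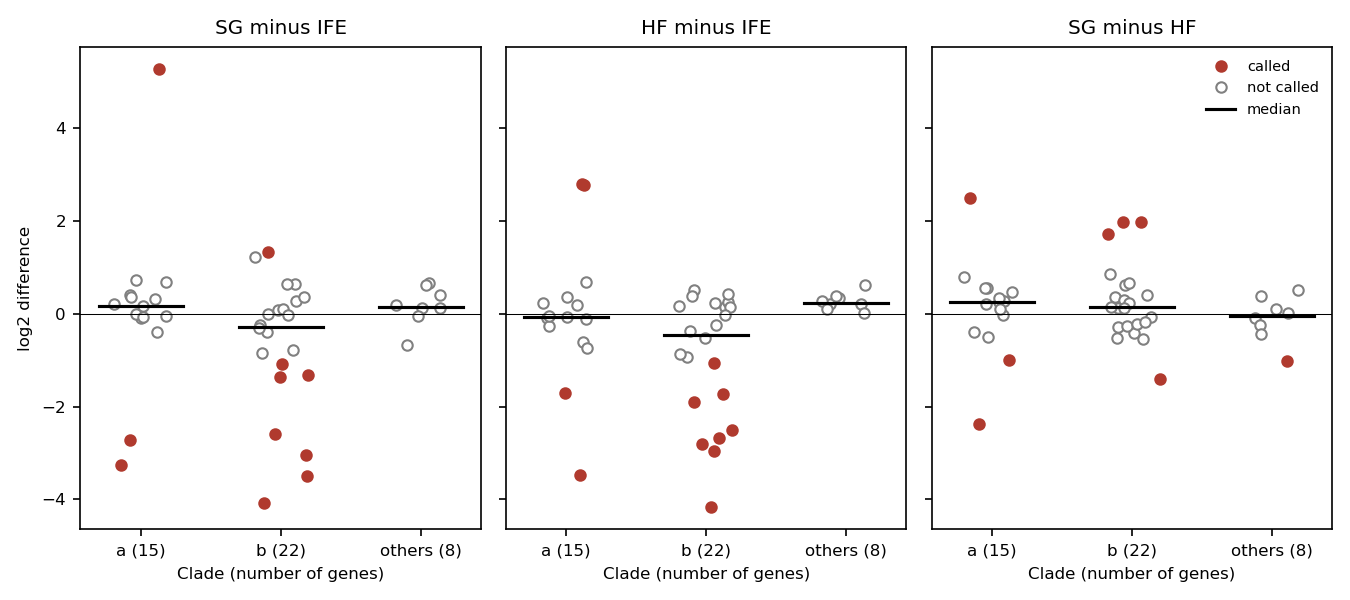
Log2 difference of each serpin gene (one point per gene) by clade for SG minus IFE, HF minus IFE and SG minus HF, with the called genes filled and the median of each clade as a line. Clade b points extend below 0 to -4.08 in SG minus IFE and -4.17 in HF minus IFE, and the highest point in the plot is Serpina3b of clade a at 5.27.

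Of the clade b members, 10 lie in one run of neighbouring genes, which in the RefSeq gene order goes from Serpinb5 through Serpinb12, Serpinb13, Serpinb3d, Serpinb3c, Serpinb11, Serpinb7, Serpinb2 and Serpinb10 to Serpinb8, with Serpinb3a and Serpinb3b, which had no value, among them. Against IFE, 7 of these 10 were lower in SG and 7 were lower in HF, where 6.96% and 3.36% of all genes were, with 0 higher in both. Their median log2 difference was -1.34 in SG and -1.82 in HF against IFE, and -0.04 between SG and HF. The other clade b cluster, with Serpinb1, Serpinb6 and Serpinb9 genes, had 12 measured members, of which 1 was higher and 0 were lower in SG and 0 were higher and 1 was lower in HF, against IFE. Its medians were 0.18 and 0.14. Of all genes, 2.54% were called higher in SG and 2.96% higher in HF. The counts of both clusters are descriptions.

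The promoters of Serpinb7 and Serpinb10, genes on either side of Serpinb2 in this run, are shown because the genes differ in their pattern. Serpinb7 was low in both SG and HF, and Serpinb10 was low in HF and not called in SG, each against IFE. Each is the 250 bases before the start of the gene in RefSeq on build GRCm38.p6, read 5′ to 3′ on the gene's strand. Serpinb7 lies at chr1:107422439-107422688 and Serpinb10 at chr1:107528753-107529002, both on the plus strand. Capitals mark matches, on either strand, to a TATA box (TATAAA) or to the binding motif of the transcription factor AP-1 (TGANTCA).
Serpinb7: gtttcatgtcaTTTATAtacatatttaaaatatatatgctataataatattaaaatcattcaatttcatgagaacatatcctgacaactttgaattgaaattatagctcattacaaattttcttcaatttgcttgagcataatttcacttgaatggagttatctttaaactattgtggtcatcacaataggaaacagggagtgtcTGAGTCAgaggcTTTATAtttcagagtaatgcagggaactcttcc
Serpinb10: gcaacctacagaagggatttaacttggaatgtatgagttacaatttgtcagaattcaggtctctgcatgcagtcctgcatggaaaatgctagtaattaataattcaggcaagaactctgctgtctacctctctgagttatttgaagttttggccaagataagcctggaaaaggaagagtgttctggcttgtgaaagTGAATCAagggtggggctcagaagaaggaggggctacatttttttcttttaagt
The Serpinb7 window held an AP-1 match 45 bases before the start and TATA matches beginning at 239 and 33 bases before it. The Serpinb10 window held an AP-1 match 54 bases before the start and no TATA match. Serpinb13 had no promoter entry, so the 11 promoters of measured genes in this run belong to 9 genes. Serpinb12 and Serpinb2 have 2 promoters each, and promoter 2 of Serpinb12 held no AP-1 match. An AP-1 match stood in 8 of the 11 promoters (72.7%), which belong to 7 of the 9 genes. It stood in 9 of 45 promoters of all measured serpins (20%) and in 6.75% of 32851 promoters. The matching promoters of the run belong to Serpinb5, Serpinb12, Serpinb11, Serpinb7, Serpinb2, Serpinb10 and Serpinb8. Serpinb5 and Serpinb11 were not called in any comparison, and the promoters of Serpinb3c and Serpinb3d, which were lower in SG and HF, held no match. A TATA match stood in 63.6% of the run's promoters and 12.4% of all, a CCAAT box (CCAAT) in 27.3% and 33.8%, a GC box (GGGCGG) in 9.09% and 32.7%, and an E-box (CACGTG) in 0% and 6.02%. The motifs were chosen after values of the genes had been seen, and a match is a run of letters and not a measured binding site.

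Serpinb13, which in humans inhibits the lysosomal proteases cathepsin L and cathepsin K, had the largest fall in SG of any serpin. Its log2 signal was 5.60, 5.97 and 6.42 on the SG arrays, 7.15, 7.76 and 7.30 on the HF arrays and 10.04, 10.52 and 9.66 on the IFE arrays. The 3 compartments did not overlap, with SG lowest and HF between. The log2 difference was -4.08 ± 0.27 (SE) in SG against IFE, a 16.9-fold lower signal (adjusted p = 4.37e-06), and -2.67 ± 0.27 in HF against IFE (adjusted p = 7.72e-05). SG was also lower than HF, by a log2 difference of -1.41 ± 0.27 (adjusted p = 0.00645). All 7 of its probe sets were called lower in SG and all 7 in HF, against IFE. In SG against HF 3 of 7 were called lower, where 4.24% of all probe sets were, and all 7 differences were negative.

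Serpinb7, whose loss in humans causes a palmoplantar keratosis, had the largest fall in HF. Its log2 signal was 6.85, 7.66 and 6.93 on the SG arrays, 5.57, 7.25 and 6.64 on the HF arrays and 10.38, 10.82 and 10.76 on the IFE arrays. SG and HF overlapped, and every array of both lay below every IFE array. The log2 difference was -4.17 ± 0.36 in HF against IFE, 17.9-fold lower (adjusted p = 3.36e-05), and -3.50 ± 0.36 in SG against IFE, 11.4-fold lower (adjusted p = 7.24e-05). Between SG and HF it was 0.66 ± 0.36 (adjusted p = 0.308).

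The 9 probe sets of Serpinb7 did not all move together. Tested one at a time over all probe sets of the table, 8 of 9 were called lower in SG and 8 of 9 lower in HF against IFE, where 12.4% and 3.81% of all probe sets were called lower. Their differences ran from -3.92 to -2.75 in SG and from -4.78 to -3.32 in HF. The probe set numbered 4899731 read 11.14, 11.16 and 10.95 on the SG arrays, 11.84, 11.63 and 11.82 on the HF arrays and 10.93, 10.82 and 10.88 on the IFE arrays. It was high on all 9 arrays, and every HF array lay above every IFE array. Its log2 difference was 0.20 in SG (adjusted p = 0.494) and 0.88 in HF (adjusted p = 0.0201), each against IFE and adjusted over all probe sets. With this probe set left out, the median of the other 8 gave -3.17 in SG and -4.00 in HF, and the mean of all 9 gave -2.78 and -3.49. In SG against HF limma called 0 of 9 probe sets, with 4 at an unadjusted p under 0.05, where 5.78% of all probe sets were called, 1.53% higher and 4.24% lower. Without HF replicate 2, 4 of 9 were called.

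**Figure D2:**
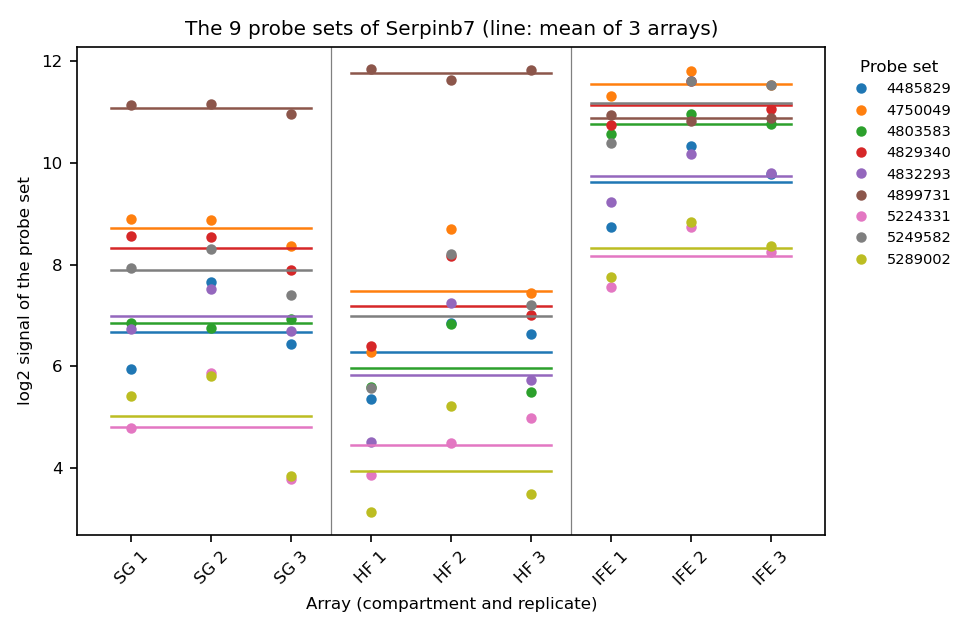
Log2 signal of each of the 9 probe sets of Serpinb7 on the SG, HF and IFE arrays, one point per array. For 8 probe sets the IFE points lie above those of SG and HF, and for probe set 4899731 the HF points, at 11.63 to 11.84, lie above the IFE points, at 10.82 to 10.93.

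Serpinb12, an intracellular inhibitor of trypsin-like proteases in humans, read 8.99, 9.06 and 8.60 on the SG arrays, 7.75, 9.60 and 8.24 on the HF arrays and 11.15, 11.88 and 11.42 on the IFE arrays. SG and HF overlapped, with HF replicate 2 above all SG arrays, and both lay below IFE. The log2 difference from IFE was -2.60 ± 0.38 in SG (adjusted p = 0.00064) and -2.95 ± 0.38 in HF (adjusted p = 0.000359), and all 11 probe sets were called lower in each. Serpinb3d is one of the mouse counterparts of the human squamous cell carcinoma antigens. It read 5.61, 7.22 and 7.15 on the SG arrays, 6.76, 7.89 and 6.97 on the HF arrays and 9.23, 9.98 and 9.92 on the IFE arrays, with log2 differences from IFE of -3.05 ± 0.42 in SG (adjusted p = 0.000418) and -2.50 ± 0.42 in HF (adjusted p = 0.00213). Its close relative Serpinb3c was dimmer, at 5.64, 4.49 and 4.85 on the SG arrays, 4.87, 4.25 and 4.62 on the HF arrays and 5.88, 6.59 and 6.48 on the IFE arrays. Its log2 difference from IFE was -1.32 ± 0.29 in SG (adjusted p = 0.00761) and -1.73 ± 0.29 in HF (adjusted p = 0.00239), and 1 of its 3 probe sets was called in each. With the brightest probe set in place of the median its differences were -0.26 and -0.40 and no longer called. Serpinb3d and Serpinb3c belong to a group of near-identical copies, and how the probes divide the signal among those copies is uncertain.

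Serpinb2, known as an inhibitor of the plasminogen activator urokinase, read 9.31, 9.74 and 9.91 on the SG arrays, 9.79, 10.22 and 9.82 on the HF arrays and 11.62, 11.10 and 10.30 on the IFE arrays. Every SG and HF array lay below every IFE array, with IFE replicate 3 close to HF replicate 2. The log2 difference was -1.35 ± 0.30 in SG (adjusted p = 0.007) and -1.06 ± 0.30 in HF (adjusted p = 0.0364), against IFE. Of its 9 probe sets, 8 were called lower in SG and 2 in HF, where 12.4% and 3.81% of all probe sets were. The HF call was lost without SG replicate 2, HF replicate 1, HF replicate 3, IFE replicate 1 or IFE replicate 2, at adjusted p-values of 0.0507, 0.134, 0.124, 0.0807 and 0.124. Serpinb8, whose loss in humans causes a peeling skin disorder, read 9.09, 9.45 and 9.85 on the SG arrays, 9.43, 9.92 and 9.70 on the HF arrays and 10.36, 10.58 and 10.70 on the IFE arrays. It was called lower in SG (-1.08 ± 0.22, adjusted p = 0.00413), and without SG replicate 1 the difference was -0.90, under the size threshold. In HF its difference of -0.86 ± 0.22 passed the test (adjusted p = 0.0223) and not the size threshold.

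The remaining genes of the run behaved otherwise. Serpinb5, or maspin, a serpin that does not inhibit proteases, read 11.08, 11.25 and 11.53 on the SG arrays, 11.00, 11.26 and 11.17 on the HF arrays and 11.99, 12.21 and 12.01 on the IFE arrays. Its differences from IFE of -0.78 ± 0.17 in SG (adjusted p = 0.00776) and -0.92 ± 0.17 in HF (adjusted p = 0.00465) passed the test and not the size threshold. Serpinb11 read 7.60, 8.18 and 7.58 on the SG arrays, 8.19, 8.24 and 8.18 on the HF arrays and 7.68, 8.49 and 7.93 on the IFE arrays. SG and HF each overlapped IFE, and every SG array lay below every HF array, by a narrow margin. The differences from IFE were -0.24 in SG (adjusted p = 0.489) and 0.17 in HF (adjusted p = 0.703). In SG against HF the difference was -0.41 (adjusted p = 0.32). Its neighbours Serpinb3c and Serpinb7 were both lower than IFE in both compartments.

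**Figure D3:**
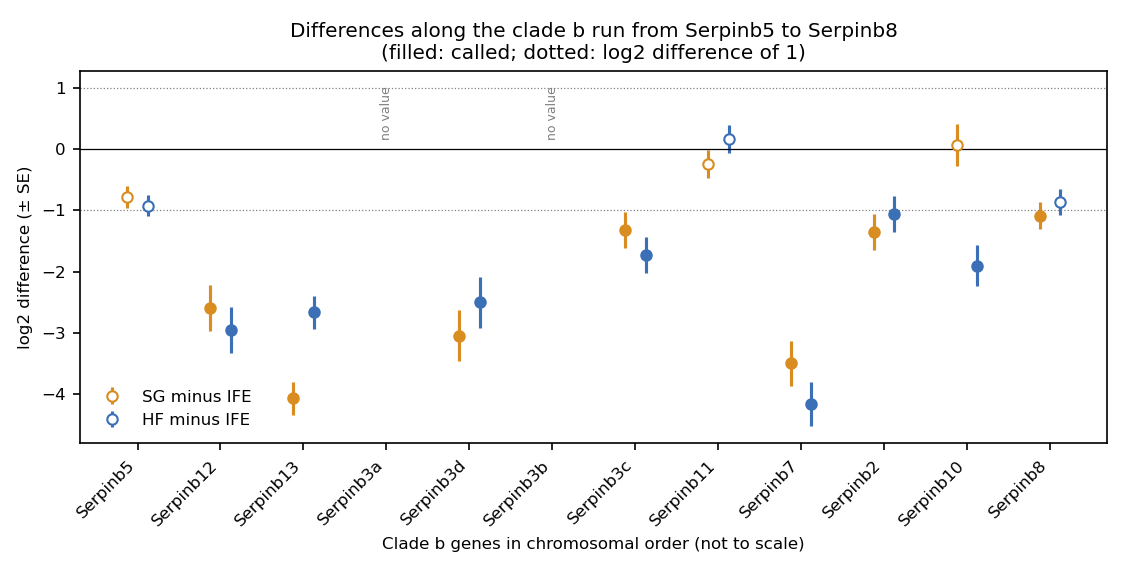
Log2 difference from IFE of the measured genes of the Serpinb5 to Serpinb8 run, in RefSeq gene order, for SG and for HF, with filled symbols for called differences and bars for the SE of the limma fit. Serpinb13 at -4.08 in SG and Serpinb7 at -4.17 in HF lie lowest, Serpinb11 lies near 0 in both, and Serpinb10 is at 0.07 in SG and -1.90 in HF.

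Serpinb10 and Serpinb6c were lower in HF than in both SG and IFE. Serpinb10, known from blood-forming cells, read 8.37, 7.87 and 8.48 on the SG arrays, 5.55, 6.92 and 6.34 on the HF arrays and 7.60, 8.43 and 8.49 on the IFE arrays. SG and IFE overlapped and HF lay below both. The log2 difference was -1.90 ± 0.34 in HF against IFE (adjusted p = 0.00322), 1.97 ± 0.34 in SG against HF (adjusted p = 0.00367) and 0.07 in SG against IFE (adjusted p = 0.907). Serpinb6c, a mouse paralogue of the cathepsin G inhibitor Serpinb6a, read 7.98, 7.78 and 7.40 on the SG arrays, 5.78, 6.38 and 5.08 on the HF arrays and 8.09, 9.09 and 8.50 on the IFE arrays. It was 7.02-fold lower in HF than in IFE, a log2 difference of -2.81 ± 0.33 (adjusted p = 0.000185), and higher in SG than in HF by 1.97 ± 0.33 (adjusted p = 0.00307). In SG against IFE the difference was -0.84 ± 0.33 (adjusted p = 0.0881).

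A leukocyte list of 7 genes, with markers of Langerhans cells and T cells, also had its lowest mean on the HF arrays. Its mean log2 signal was 7.43 to 7.57 on the SG arrays, 6.55 to 6.74 on the HF arrays and 6.81 to 7.26 on the IFE arrays, and its summed signal was 1337 to 1456, 707 to 862 and 825 to 1184. Of its 7 genes, 0 were higher and 1 was lower in HF than in IFE, and 2 were higher in SG than in HF. The list was uneven in HF against IFE. Log2 differences were -1.02 for Cd207, -0.99 for Cd74, -0.98 for Tyrobp, -0.27 for H2-Ab1 and -0.21 for Ptprc. The T cell genes Cd3e and Cd3g went the other way, at 0.09 and 0.16, and were not called. The part of leukocytes in the values of Serpinb10 and Serpinb6c was not tested.

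Serpinb1c was the clade b gene that was called higher in SG than in IFE. It read 7.67, 7.55 and 6.90 on the SG arrays, 6.28, 5.51 and 5.18 on the HF arrays and 6.31, 5.95 and 5.86 on the IFE arrays, and every SG array lay above all the others. The log2 difference was 1.34 ± 0.29 in SG against IFE (adjusted p = 0.0061), 2.53-fold, and 1.72 ± 0.29 in SG against HF (adjusted p = 0.0031), 3.29-fold. Of its 6 probe sets 4 were called higher in each, and their differences from IFE ran from -0.15 to 3.74. Its paralogue Serpinb1a, an inhibitor of neutrophil elastase, read 6.67, 6.41 and 7.49 on the SG arrays, 7.13, 7.61 and 7.39 on the HF arrays and 7.07, 7.20 and 7.46 on the IFE arrays and was not called. The Serpinb1, Serpinb6 and Serpinb9 genes are families of similar copies, so a part of each signal may come from a relative.

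Among the clade a genes, Serpina3b and Serpina12 lay at opposite ends. Serpina3b belongs to a group that expanded in the mouse from the counterpart of human alpha-antichymotrypsin, and Serpina12, or vaspin, inhibits the kallikrein Klk7 and is mutated in a human keratoderma. Their promoters are printed because these genes had the largest rise and the largest fall of clade a. They are the 250 bases before the start at chr12:104044444-104044693 on the minus strand for Serpina12 and chr12:104127746-104127995 on the plus strand for Serpina3b, on GRCm38.p6, with capitals as before.
Serpina3b: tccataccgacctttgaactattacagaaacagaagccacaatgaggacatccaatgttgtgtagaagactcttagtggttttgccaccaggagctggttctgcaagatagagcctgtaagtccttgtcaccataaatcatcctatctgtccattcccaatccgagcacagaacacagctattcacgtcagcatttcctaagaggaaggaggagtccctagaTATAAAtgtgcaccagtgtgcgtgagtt
Serpina12: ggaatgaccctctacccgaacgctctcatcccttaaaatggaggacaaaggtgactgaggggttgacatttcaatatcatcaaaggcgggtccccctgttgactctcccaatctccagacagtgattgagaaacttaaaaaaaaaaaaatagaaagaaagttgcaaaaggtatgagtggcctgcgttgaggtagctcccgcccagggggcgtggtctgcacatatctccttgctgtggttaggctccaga
Serpina3b held a TATA match beginning 28 bases before the start and no AP-1 match. The Serpina12 window held neither.

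Serpina3b was the serpin most raised in SG. Its log2 signal was 12.33, 12.95 and 12.54 on the SG arrays, 9.62, 11.01 and 9.74 on the HF arrays and 6.15, 7.90 and 7.95 on the IFE arrays. The compartments did not overlap, with SG highest, HF between and IFE lowest. It was 38.6-fold higher in SG than in IFE, a log2 difference of 5.27 ± 0.47 (adjusted p = 2.24e-05). In HF against IFE it was 6.91-fold higher, at 2.79 ± 0.47 (adjusted p = 0.00211), and in SG against HF 5.58-fold higher, at 2.48 ± 0.47 (adjusted p = 0.0059). All 9 probe sets were called higher in SG than in IFE and than in HF, and 7 of 9 in HF against IFE, where 3.00%, 1.53% and 2.96% of all probe sets were called higher. The sebocyte list had means of 10.43 to 10.99 on the SG arrays, 8.34 to 8.90 on the HF arrays, with HF replicate 2 highest, and 6.72 to 7.08 on the IFE arrays. The order of the compartments is that of Serpina3b, and the part of sebocytes in the HF signal was not tested. Its neighbours in the gene order were not called. Serpina3a, at 6.99, 7.20 and 7.15 on the SG arrays and 6.32, 6.28 and 6.55 on the IFE arrays, differed by 0.73 ± 0.16 (adjusted p = 0.00757) and did not reach the size threshold. Its probe sets were uneven: 3 of 5 were called higher in SG than in IFE, the differences of the 5 ran from 0.19 to 3.06, and their mean was 1.40. Serpina3c, on the other side, read 4.89 to 5.45 on all 9 arrays.

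Serpina12 read 8.90, 8.38 and 7.51 on the SG arrays, 7.49, 8.97 and 7.69 on the HF arrays and 11.19, 11.79 and 11.59 on the IFE arrays. SG and HF overlapped and both lay below IFE. The log2 difference was -3.26 ± 0.40 in SG (adjusted p = 0.000208), 9.58-fold lower, and -3.47 ± 0.40 in HF (adjusted p = 0.000178), 11.1-fold lower, and all 6 probe sets were called lower in both. Serpina9, known in humans from germinal centre B cells, is its neighbour in the gene order. It read 6.15, 6.34 and 5.64 on the SG arrays, 6.90, 6.99 and 7.24 on the HF arrays and 8.48, 8.82 and 8.98 on the IFE arrays, with no overlap between compartments. Its log2 difference from IFE was -2.72 ± 0.21 in SG (adjusted p = 1.05e-05) and -1.72 ± 0.21 in HF (adjusted p = 0.000289), with 8 of 8 probe sets called in each. In SG against HF its difference (SE 0.21, adjusted p = 0.0118) lay just past the size threshold, and it was -0.80 without SG replicate 3 and -0.91 without HF replicate 3. Of its 8 probe sets, 3 were called lower in SG than in HF, where 4.24% of all probe sets were.

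Of the 8 serpins lower than IFE in both SG and HF, 6 were highest among the HF arrays on replicate 2, as the suprabasal list was. Serpina9 was highest on HF replicate 3, and Serpinb3c was lowest on HF replicate 2. HF replicate 2 also had the highest median signal of the HF arrays, 210 against 195 and 207. The share of all genes that were highest there was not counted. The summed signal of the suprabasal list was 17791 to 21237 on the SG arrays, 14777 to 20092 on the HF arrays and 39318 to 48007 on the IFE arrays. Its part in the lower serpin values of SG and HF was not tested. With SG replicate 3 and HF replicate 2 both left out, 11 serpins were called in SG against IFE and 12 in HF against IFE, as many as with all arrays.

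Serpina1e is one of several mouse copies of alpha-antitrypsin, the main inhibitor of neutrophil elastase in plasma, and was higher in HF than in both other compartments. It read 7.34, 7.29 and 8.21 on the SG arrays, 10.19, 9.44 and 10.32 on the HF arrays and 7.05, 7.04 and 7.57 on the IFE arrays. Every HF array lay above all the others. It was 6.78-fold higher in HF than in IFE, at 2.76 ± 0.29 (adjusted p = 0.000115), and 5.17-fold lower in SG than in HF, at -2.37 ± 0.29 (adjusted p = 0.000681). It rested on 1 probe set, and of its near-identical copies only Serpina1d was measured, at 5.57, 5.37 and 4.66 on the SG arrays, 4.19, 4.17 and 4.90 on the HF arrays and 4.50, 4.36 and 4.69 on the IFE arrays. A list of 6 liver and plasma protein genes had means of 6.92 to 7.18 on the SG and 6.73 to 6.98 on the HF arrays. On the IFE arrays its means were 6.49 to 6.85, and 0 of 6 were called higher in HF than in IFE. Ambp of this list was called higher in SG than in IFE and HF, by 2.04 and 1.41. Hair shaft markers averaged 12.57, 11.88 and 12.61 on the HF arrays, lowest on replicate 2 as Serpina1e was. Within SG both were highest on replicate 3, at 10.27 for the markers. Within IFE they parted, with Serpina1e highest on replicate 3 and the markers, at 6.64, on replicate 1. What hair shaft cells or plasma contributed to Serpina1e was not tested.

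**Figure D4:**
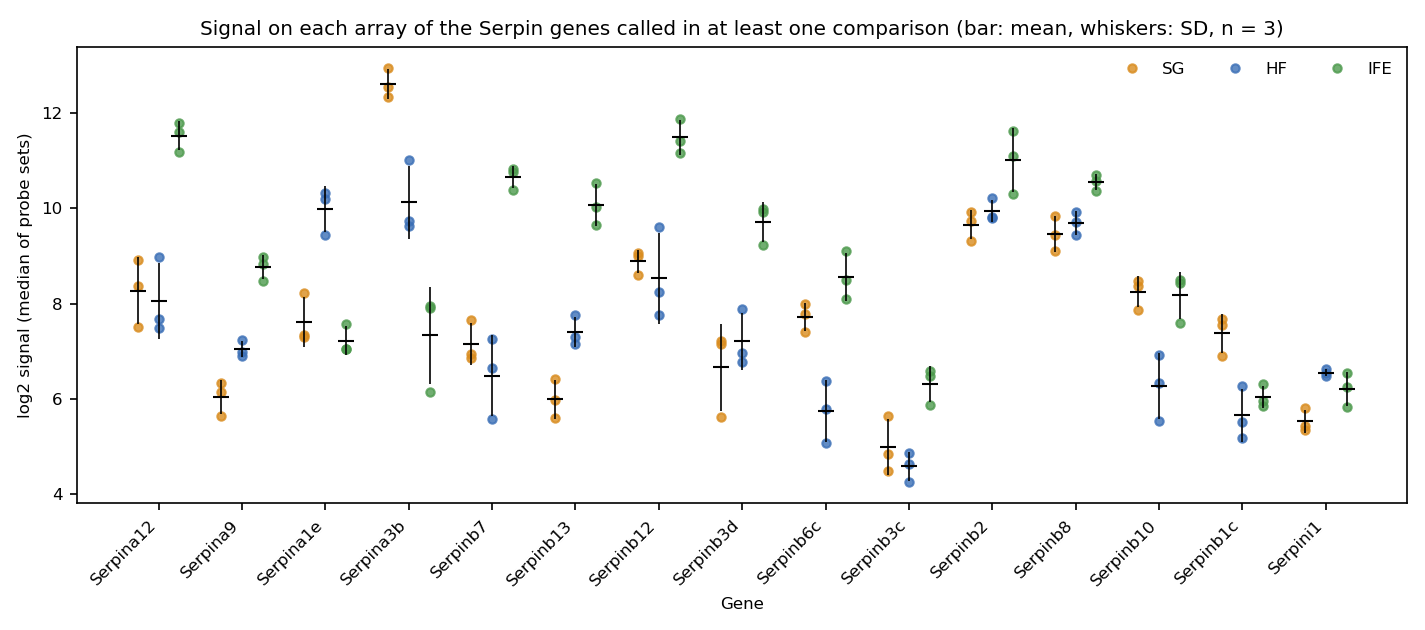
Log2 signal of the serpins called in at least one comparison on each SG, HF and IFE array (points), with the mean and the SD of each compartment. Serpina3b has its SG points at 12.33 to 12.95, and Serpinb13, Serpinb7 and Serpina12 have all their IFE points above those of SG and HF.

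Serpini1, or neuroserpin, an inhibitor of tissue plasminogen activator, was the single called gene of the other clades. It read 5.43, 5.35 and 5.80 on the SG arrays, 6.63, 6.48 and 6.53 on the HF arrays and 6.53, 6.25 and 5.83 on the IFE arrays. It was lower in SG than in HF, with a log2 difference of -1.02 ± 0.21 (adjusted p = 0.00849), and every SG array lay below every HF array. Of its 11 probe sets 4 were called lower, and without SG replicate 1, SG replicate 2 or HF replicate 1 the difference was -0.97, -0.93 or -0.98, under the size threshold. In SG against IFE the Serpini1 difference of -0.68 ± 0.21 passed the test (adjusted p = 0.0349) and not the size threshold. Every SG array lay below every IFE array, and 4 of 11 probe sets were called lower. Serpine2, an inhibitor of thrombin and plasminogen activators, differed by 0.61 in HF against IFE (adjusted p = 0.217). Serpinf1, a non-inhibitory serpin, read 8.18 on SG replicate 3 and 5.99 to 6.99 on the other 8 arrays, and SG replicate 3 also had the highest mean of the dermal fibroblast list, 7.82, against 7.12 to 7.42 on the others. That list was uneven. Dcn, Thy1, Col1a1 and Col1a2 had their highest signal on SG replicate 3, and Col3a1, Fbn1 and Pdgfra did not. The part of fibroblasts in the Serpinf1 signal was not tested. Serping1, which inhibits the first complement proteases, differed by 0.61 in SG against IFE (adjusted p = 0.176).

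In all, 15 serpins were called in at least one comparison and 30 in none. The 30 had mean log2 signals over the 9 arrays of 4.71 to 11.50, and 13 of the 45 members lay above the median gene, at 7.37. Besides the genes named above, the uncalled members were Serpina3g, Serpina3k, Serpina3n, Serpina5, Serpina6, Serpina7, Serpina10 and Serpina11 in clade a, and Serpinb1b, Serpinb6a, Serpinb6b, Serpinb9, Serpinb9b, Serpinb9c, Serpinb9e, Serpinb9f and Serpinb9g in clade b. The other clades added Serpinc1, which is antithrombin, Serpind1, Serpinf2 and Serpini2. The largest uncalled difference was that of Serpinb9g in SG against IFE, 1.22 ± 0.51 (adjusted p = 0.11), from 1 probe set that read 4.12 on IFE replicate 1 and 6.45 and 6.26 on IFE replicates 2 and 3. Serpina5, an inhibitor of activated protein C, differed by 0.67 ± 0.19 in HF against IFE (adjusted p = 0.0378), under the size threshold.

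Some calls ended under other settings. With a block for the letter that ends each array name, the adjusted p of SG against HF became 0.0665 for Serpina3b, 0.0684 for Serpinb6c, 0.0528 for Serpinb10, 0.0901 for Serpina9 and 0.105 for Serpini1. Against IFE it became 0.06 for Serpinb10 in HF and 0.0794 for Serpinb8 in SG. The letters of SG replicate 1, HF replicate 1 and IFE replicate 3 occur on no other array. Under this block those arrays no longer inform the differences, so a lost call cannot be laid to the letter itself. With a pseudocount of 50 the log2 difference became 0.90 for Serpinb1c and -0.65 for Serpinb3c in SG against IFE, -0.81 for Serpinb3c in HF against IFE and -0.94 for Serpinb13 in SG against HF, each under the size threshold. With quantile normalization Serpinb2 and Serpinb8 in SG against IFE became -0.94 and -0.67, and Serpinb2 in HF against IFE became -0.79. With median centring Serpinb8 in SG against IFE became -0.99. The SG against HF calls of Serpina9 and Serpini1 were lost in 9 and 7 of 22 settings. The 22 settings include the looser size thresholds, under which no call could be lost. Serpina9 became -0.88 with quantile normalization, -0.93 with median centring, -0.92 with the mean of probe sets, -0.95 with array weights and -0.61 with the pseudocount. Serpini1 became -0.88 with quantile normalization, -0.95 with median centring and -0.58 with the pseudocount.

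**Figure D5:**
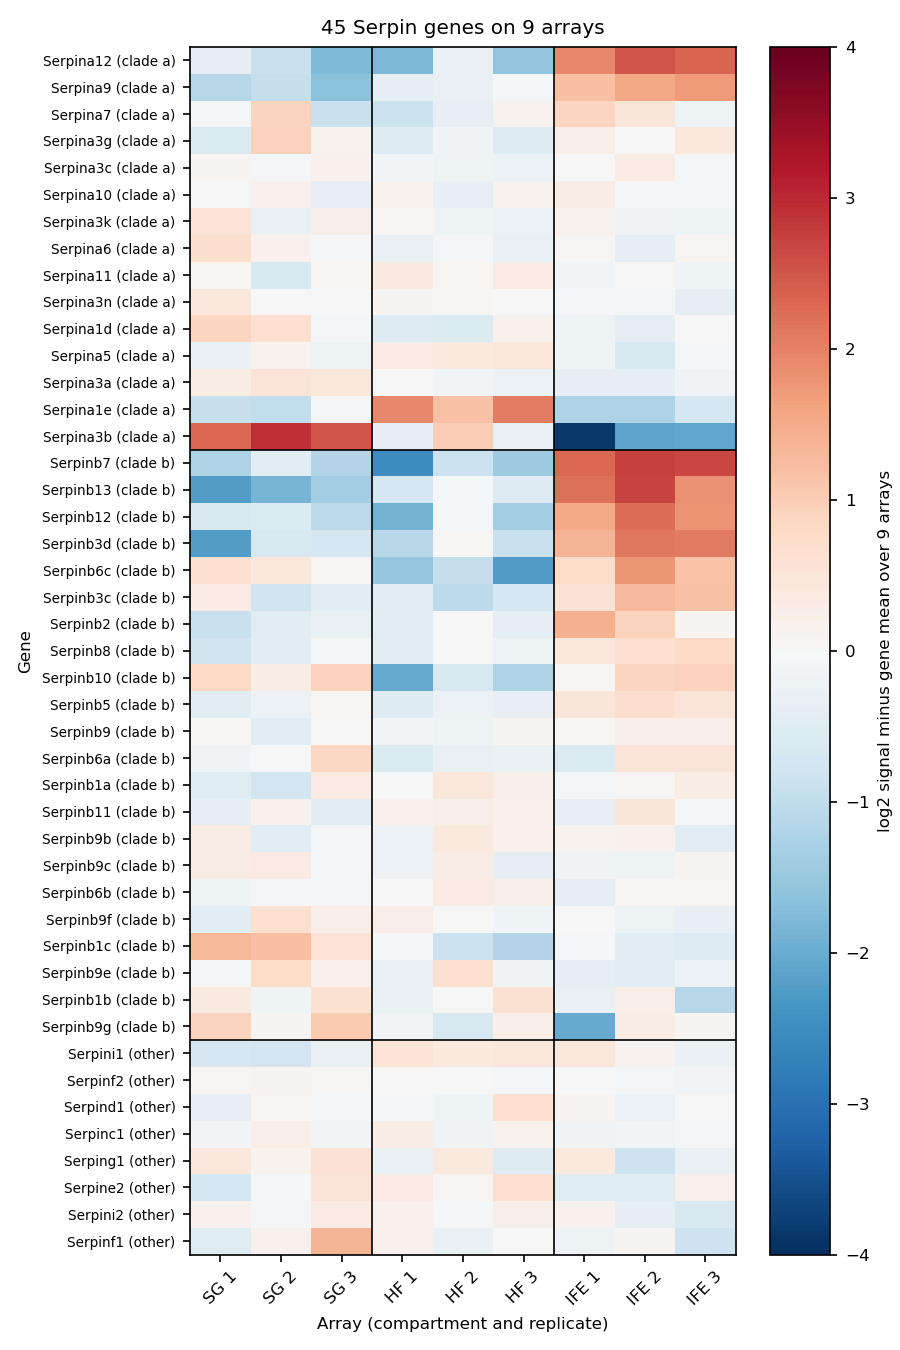
Log2 signal of the 45 serpin genes on the 9 arrays, with each gene's mean over the arrays subtracted, SG, HF and IFE from left to right and genes grouped by clade. Serpina3b stands out on the SG arrays, and Serpinb7, Serpinb13, Serpinb12 and Serpina12 stand out on the IFE arrays.

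Proteases that serpins bind, other protease inhibitors and receptors that clear serpin complexes were counted as well. Of 52 measured genes of this list, 6 were higher and 8 lower in SG than in IFE, and 8 were higher and 6 lower in HF than in IFE. Over all genes, 2.54% were higher and 6.96% lower in SG, and 2.96% were higher and 3.36% lower in HF. In SG against HF, 2 were higher and 7 lower, where 1.81% and 3.30% of all genes were. Their median log2 differences were -0.02, 0.15 and -0.23. Of 28 proteases, 3 were higher and 3 lower in SG and 4 were higher and 3 lower in HF, each against IFE. Of 18 other inhibitors, 3 were higher and 3 lower in SG, and 4 were higher and 2 lower in HF. Of 6 receptors and cofactors, 0 were higher and 2 lower in SG, and 0 were higher and 1 lower in HF.

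Urokinase, encoded by Plau and bound by Serpinb2, read 6.56, 6.42 and 7.64 on the SG arrays, 7.62, 7.63 and 7.33 on the HF arrays and 9.32, 9.92 and 9.61 on the IFE arrays. Its log2 difference from IFE was -2.74 ± 0.29 in SG (adjusted p = 8.44e-05) and -2.09 ± 0.29 in HF (adjusted p = 0.000601), beside -1.35 and -1.06 for Serpinb2. Klk7, the kallikrein that Serpina12 inhibits, read 9.37, 9.36 and 10.62 on the SG arrays, 11.50, 11.73 and 11.60 on the HF arrays and 11.69, 11.84 and 11.88 on the IFE arrays. It was lower in SG, with log2 differences of -1.82 ± 0.29 from HF (adjusted p = 0.00237) and -2.02 ± 0.29 from IFE (adjusted p = 0.000546). In HF against IFE its difference was -0.20 ± 0.29 (adjusted p = 0.722), where Serpina12 was 11.1-fold lower. Cathepsin L, encoded by Ctsl, was lower in SG than in HF (log2 difference -1.76 ± 0.26, adjusted p = 0.00155) and higher in HF than in IFE by 1.39 ± 0.26 (adjusted p = 0.00405), where Serpinb13 was lower in SG than in HF and lower in HF than in IFE.

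The kallikreins Klk6 and Klk10 were higher in HF than in IFE, by 3.45 ± 0.40 (adjusted p = 0.000178) and 3.31 ± 0.29 (adjusted p = 3.62e-05). The inhibitors outside the family split as well. Wfdc12 was lower than in IFE, with log2 differences of -3.84 ± 0.29 in SG (adjusted p = 8.11e-06) and -3.37 ± 0.29 in HF (adjusted p = 3.18e-05), and the difference of Wfdc5 was -2.75 ± 0.26 in SG (adjusted p = 3.57e-05). Spink12 was higher than IFE by 2.77 ± 0.19 in SG (adjusted p = 5.1e-06) and 3.51 ± 0.19 in HF (adjusted p = 3.34e-06). In SG against HF the membrane protease St14 was lower, with a log2 difference of -1.64 ± 0.30 (adjusted p = 0.00525), and Klk6 had one of -2.08 ± 0.40 (adjusted p = 0.00658). Cathepsin S, encoded by Ctss, and granzyme B, encoded by Gzmb, were higher in SG than in HF, by 1.17 ± 0.33 (adjusted p = 0.0475) and 1.18 ± 0.31 (adjusted p = 0.0353). Both are expressed by leukocytes, whose list had its lowest mean on the HF arrays, and the part of those cells was not tested.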

How the data were processed

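RNA of hand-dissected compartments of tail epidermis was amplified and hybridised to exon arrays, 3 per compartment. The authors deposited an intensity per probe set and array, linear and between 2.5 and 30815. Per the submitters' processing notes, RMA, Affymetrix Power Tools and build mm9 were used, in versions not given in the sources used here. RMA usually ends on a log2 scale, and array medians ran from 176 to 234, so the array medians had not been made equal. The small number of arrays limits the precision: the SE of a log2 difference was 0.207 at the median gene.

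The log2 of each of 154736 probe sets was taken with no pseudocount. Probe sets with several symbols (1060) or none (6712) were left out, which left 14507 genes, each on 8 probe sets at the median. Symbols of 1754 genes were updated through RefSeq genes on GRCm38, which served for names and gene order alone, since that build differs from the notes'. Promoters are RefSeq's on GRCm38.p6, and 38 of 45 members had one.

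The fit used limma 3.58.1 under R 4.3.3, all 9 arrays and a mean for each compartment, and eBayes with Benjamini-Hochberg adjustment over all genes (or all probe sets) followed. Each SE is that of the fit. Tested on data simulated for SG against IFE (14507 genes), it recovered 86 of 100 genes with a log2 change of 1.5 and 99 of 100 with a change of 3, and made 5 false calls.

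The members, the partner and marker lists and the thresholds were chosen with earlier results of these data known, so counts over them are descriptions. Values per array are given for every called member and Serpinb7. Of the partner list, differences are given for up to 4 called genes per comparison by size, with 2 or fewer that went the other way. Klk7, Ctsl and Plau were set beside their serpins, with values per array for Klk7 and Plau. The mast cell, endothelial, melanocyte and resting hair follicle marker lists had 3, 5, 4 and 8 measured genes. Against IFE, 0, 0, 1 and 6 of them were higher in SG and 1, 0, 0 and 7 were higher in HF. Of the fibroblast list, 7 genes were measured, of which 0 were called in SG and 1 was higher and 1 lower in HF. The alternatives were blocks, scalings, filters, probe set summaries and left-out arrays.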

Additional observations from a re-analysis of the deposited data

How the results depend on the processing

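Of 218 counts of calls recomputed under the alternatives, 211 stayed within 1.5 times the value with all arrays and no block. Differences of serpins already called were followed as well, and 661 of 703 kept their direction and their call. A 1.5-fold threshold and no size threshold only loosened the cut, so the 31 calls followed under each of them could not be lost. The samples share replicate numbers in the titles. Deviations of same-numbered arrays from their compartment means correlated at -0.02 to 0.23. With 3 arrays per compartment such values cannot show whether same-numbered arrays came from the same animals, so pairing is unknown. With the replicate number as a block, 11, 12 and 8 serpins were called in SG against IFE, HF against IFE and SG against HF. All 31 named calls were kept with that block. With the letter of the array name as a block, SG against HF fell to 3 serpins and 5 partner genes, against 8 and 9 without it. That block takes SG replicate 1, HF replicate 1 and IFE replicate 3 out of the differences, since no other array shares their letters. Deviations of same-letter arrays correlated at -0.13 to 0.11. SG against HF gave 5 serpins with a pseudocount of 50, where 3.40% of all genes were called. Without the dimmer 50% of genes it gave 4 of the 13 serpins left, where 7.65% of 7253 genes were called. That filter takes the mean over all 9 arrays, so a gene can pass through the compartment where it is high. Leaving out one array at a time gave 10 to 12 serpins in SG against IFE, 11 to 12 in HF against IFE and 7 to 8 in SG against HF, 16 to 19 by the F test, and 11 to 14, 11 to 15 and 7 to 11 partner genes. It gave 8 Serpinb7 probe sets lower than IFE in SG and in HF each time, and 0 to 4 in SG against HF, or 5 without SG replicate 3 and HF replicate 2. With the brightest probe set of each gene, Serpinb7 reversed to 0.20 in SG (adjusted p = 0.394) and 0.88 in HF (adjusted p = 0.00401) against IFE, since that probe set is 4899731. Quantile normalization moved the median of all genes in SG against IFE to 0.16, against -0.06, and the share of its calls that were higher to 56.1%, against 26.7%, and in SG against HF to 0.12, against -0.02, and 50.1%, against 35.4%. In HF against IFE that share became 58.2%, against 46.8%. Without detection calls, dim serpins such as Serpinb3c may have compressed differences. Other causes were not tested.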
